A study of Saccharomyces cerevisiae with 40 samples.

Results

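The arrays described here recorded the response of Saccharomyces cerevisiae to 1 mM arsenite (AsIII) after 30 min. They were the 8 arrays whose labels gave that dose and time, of 20 arrays on the spotted cDNA platform and of 40 samples in the series, and 5540 genes had a ratio on each of them. All cells were of the haploid strain BY4741, which is MATa and carries his3Δ, leu2Δ0, met15Δ0 and uraΔ0, and untreated controls carried the same alleles. A culture in synthetic complete medium was divided, NaAsO2 was added to one part at 30 °C and the other part was incubated for the same time without it. The biological repeats 1 and 2 are called culture pair 1 and culture pair 2 below, with 4 arrays each. Poly(A) RNA of the treated and the untreated part was labelled with different dyes and hybridised together to a chip made in-house at the NIEHS. On arrays 1 and 2 of each pair the treated RNA carried Cy3 and on arrays 3 and 4 it carried Cy5. Each value is a log2 ratio of treated over untreated RNA, so that 1 stands for 2-fold more RNA after AsIII, and no value gives the level of an RNA. The log base is not given in the sources used here and was taken as 2.

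Arsenite is a trivalent metalloid that binds thiol groups of proteins and of glutathione, the main small thiol of the cell. Yeast pumps it out through the plasma membrane carrier Arr3 and moves its glutathione conjugates into the vacuole through Ycf1. Thiol-reactive compounds are known to activate regulators of redox enzymes (Yap1), chaperones (Hsf1), the proteasome (Rpn4) and sulfur assimilation (Met4).

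Values were first averaged within each culture pair, and limma then tested the mean of the 2 pairs against 0 with Benjamini-Hochberg adjustment over 5540 genes. "Rose" and "fell" are used of genes with an adjusted p under 0.05, and SE is the moderated standard error of the mean over 2 culture pairs. Under this rule 537 genes (9.69% of those tested) rose and 393 (7.09%) fell, and 2056 had an unadjusted p under 0.05. Counts within a gene list are to be read against the shares of 9.69% and 7.09%. Of the 930 genes that rose or fell, 902 had the same sign on all 8 arrays. In 0 of them did the pair means differ in sign, but with 2 pairs the test cannot call such a gene. The same sign on all 8 arrays was above 0 for 20.3% of all genes and below 0 for 20% of them, and a mean of at least 2-fold with it was found for 8.29% of genes upward and 6.41% downward. Array medians lay between -0.04 and 0.06. The median SD of a gene was 0.35 over the 4 arrays of pair 1, 0.26 over those of pair 2 and 0.22 between the pair means. Spots on such chips are double-stranded, so RNA of both strands, of overlapping genes and of near-identical copies binds to the same spot. Gene families of that kind are given as uncertain below. The p-values rest on the spread between these 2 culture pairs, which limma moderates toward a prior spread pooled over all genes. Each gene had 1 residual degree of freedom of its own, against 4.28 of the prior, whose SD was 0.31. The SE of a gene whose pairs lie close is therefore set mostly by the prior.

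Reductases and aryl-alcohol dehydrogenases held the largest increases. OYE3, an NADPH dehydrogenase (old yellow enzyme), was at 5.88, 6.13, 7.36 and 6.80 on the arrays of culture pair 1 and at 6.23, 8.09, 7.20 and 7.31 on those of pair 2, which is a 117-fold increase of the mean (SE 0.24, limma adjusted p = 0.00240). GRE2, a methylglyoxal reductase, was at 4.91, 5.09, 5.61 and 5.20 in pair 1 and at 4.81, 5.71, 4.97 and 4.86 in pair 2. The arrays of the pairs overlapped for both genes. Of 16 measured genes of aldehyde, ketone and quinone reduction 7 rose and 0 fell, and the median ratio was 0.82 against 0.02 for all genes. Beside OYE3 and GRE2 these were FRM2, a nitroreductase-like protein (4.33), OYE2 (3.73), the 2-methylbutyraldehyde reductase YPR1 (1.77), the aldose reductase GRE3 (1.45) and the alcohol dehydrogenase ADH6 (1.44). The call of GRE3 was lost on the Cy3 arrays alone, where its mean was 0.90. FRM2 differed between the cultures, at 2.53 to 3.98 in pair 1 and 4.46 to 6.62 in pair 2. OYE2 differed the other way, with 4.30 to 4.61 in pair 1 and 3.00 to 3.11 in pair 2. Of 6 aryl-alcohol dehydrogenases, a family of similar sequence in which copies can share signal, 4 rose: AAD6 (4.71), AAD15 (4.18), AAD14 (3.80) and AAD3 (2.33). AAD10 did not pass, at -0.39 to 1.07 in pair 1 and 2.66 to 3.37 in pair 2, and AAD4 stood at 0.57.

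**Figure D1:**
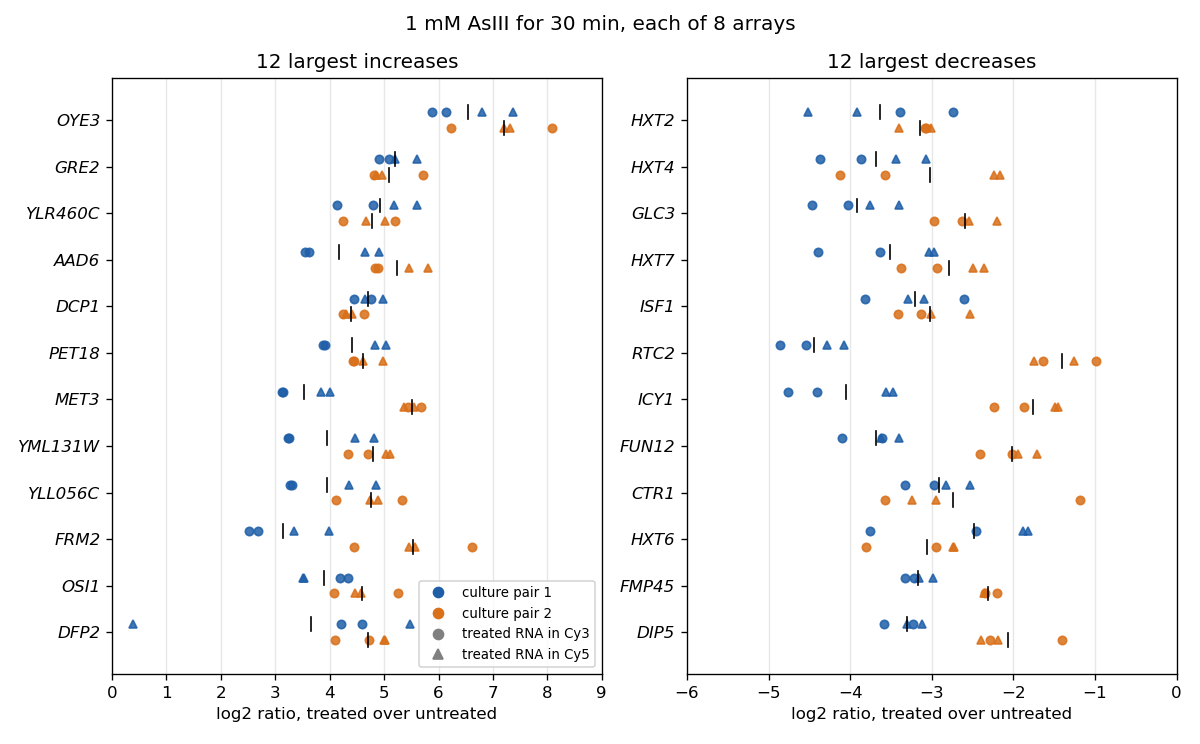
Log2 ratio of treated over untreated RNA (x axis) on each of 8 arrays for the 12 genes with the largest increase (left) and the 12 with the largest decrease (right) among called genes with the same sign on all arrays. Blue points are culture pair 1, orange points culture pair 2, circles arrays with treated RNA in Cy3, triangles in Cy5, and black ticks the mean of 4 arrays. OYE3 lies between 5.88 and 8.09, the pairs lie apart for RTC2 and ICY1, and 1 array of DFP2 at 0.38 stands away from the rest.

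Genes of thiol redox control rose in several groups, and none of them fell. Of 11 thioredoxins, thioredoxin reductases and peroxiredoxins 8 rose and 0 fell, with a median ratio of 1.37. TRX2, the cytosolic thioredoxin that reduces peroxiredoxins, was at 2.24, 2.07, 3.29 and 3.11 in pair 1 and at 3.15, 2.93, 3.16 and 3.31 in pair 2 (SE 0.22, limma adjusted p = 0.00501). AHP1, SRX1, TSA1 and PRX1, which are peroxiredoxins and the sulfiredoxin that repairs them, rose by 2.47, 2.34, 2.00 and 1.79. The paralog TRX1 stood at 0.44 and did not pass. Of 17 glutaredoxins, peroxidases, catalases and superoxide dismutases 6 rose and 0 fell (median 0.67), led by GRX8 (3.39) and the peroxidase GPX2 (2.83). The mitochondrial cytochrome c peroxidase CCP1 rose by 1.90 and the peroxisomal catalase CTA1 by 1.29, a call that was lost with the Cy3 arrays alone. The superoxide dismutases SOD1 and SOD2, which remove superoxide, stood at 0.60 and 0.16 and did not pass. Of 17 glutathione genes 7 rose and 0 fell (median 0.86), and GPX2 is counted in this list as well as in the one before. Among them were GTT2, a glutathione transferase (3.45), GLR1, which reduces oxidised glutathione (2.23), and ECM4, an omega-class transferase (2.11). GSH1, the first enzyme of glutathione synthesis, was at 0.72 to 1.00 in pair 1 and at 1.60 to 2.05 in pair 2, while GSH2, the enzyme after it, stood at 0.06.

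Among genes of NADPH supply and the pentose phosphate pathway changes went both ways. IDP3, the peroxisomal NADP isocitrate dehydrogenase, rose by 2.50 and SOL1, of the phosphogluconolactonase family, by 1.85. ZWF1, the glucose-6-phosphate dehydrogenase that opens the pentose phosphate pathway, rose by 1.12, with 0.64 to 0.83 in pair 1 and 1.30 to 1.71 in pair 2, and did not pass with either dye orientation alone. RKI1, a ribose-5-phosphate ketol-isomerase, fell by 1.24 and the aldehyde dehydrogenase ALD6 by 1.05, the latter not with every orientation. Over the 17 genes of the list 3 rose and 2 fell.

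Among genes of multidrug transport and their regulators a larger share rose than among all genes. Of 24 measured, 5 rose (20.8%, against 9.69% of all genes), with a list median of 0.05. The 2 that fell (8.33%) were near the 7.09% of all genes. FLR1, a multidrug transporter under Yap1, was at 3.20, 3.54, 3.02 and 2.67 in pair 1 and at 2.51, 3.75, 2.49 and 2.84 in pair 2 (limma adjusted p = 0.00438). The lipid transfer protein PDR16 (2.80) and the polyamine exporter TPO1 (2.10) rose as well, while the transporters QDR2 and TPO3 fell by 1.98 and 1.28. The pump PDR5 stood at 0.98 and did not pass. Of 9 genes of arsenic transport and detoxification 2 rose and 0 fell, with a median of 0.38, which was 0.77 on the Cy3 arrays alone and 0.05 on the Cy5 arrays alone. ARR3 was at 2.47, 2.81, 2.21 and 2.06 in pair 1 and at 1.88, 2.54, 1.51 and 1.97 in pair 2, a 4.53-fold increase of the mean (SE 0.22, limma adjusted p = 0.00662). Its neighbour ARR2, the arsenate reductase, rose by 3.91. YCF1 stood at 0.41 (limma adjusted p = 0.198), the aquaglyceroporin FPS1, through which arsenite enters, at 0.08, and ARR1, the regulator of ARR2 and ARR3, at -0.21.

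Most genes of sulfate assimilation rose, and the ratios were higher in culture pair 2. Of 10 genes 8 rose and 0 fell, and the list's median was 1.35 in pair 1 and 2.61 in pair 2. The sulfate permeases SUL1 (1.29) and SUL2 (1.53) are the way in, and both lost their call with 1 dye orientation alone. ATP sulfurylase, encoded by MET3, was at 3.15, 3.12, 4.00 and 3.84 in pair 1 and at 5.68, 5.43, 5.36 and 5.55 in pair 2, so the arrays of the pairs did not overlap (SE 0.47, limma adjusted p = 0.00697). The APS kinase MET14 (3.86), the PAPS reductase MET16 (3.73) and the sulfite reductase subunit MET5 (2.37) followed. The other subunit, MET10, was at 0.93 to 1.28 in pair 1 and 3.69 to 3.89 in pair 2, and missed the threshold (2.46, limma adjusted p = 0.0509). MET8, which makes the sirohaem of the same enzyme, stood at 0.11.

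Past sulfide, single steps changed. Of 18 genes of homocysteine, methionine and cysteine metabolism 4 rose and 1 fell, with a median of 0.34. HOM3 (3.29) and HOM6 (2.22), which carry aspartate toward homoserine, rose, as did CYS4, the cystathionine beta-synthase (1.57), and the homocysteine methyltransferase MHT1 (1.51). IRC7, a cystathionine beta-lyase, fell by 1.82 and was below 0 on all 8 arrays. Of 10 genes for uptake or breakdown of organic sulfur 6 rose and 1 fell (median 0.97). On the Cy3 arrays alone 2 of them rose, and on the Cy5 arrays alone 6 rose and 0 fell. JLP1, a sulfonate dioxygenase, was at 2.37, -0.10, 3.90 and 3.47 in pair 1 and at 4.57, 5.36, 4.32 and 4.50 in pair 2, and its call was lost in Cy3 alone. The methionine permease MUP3 (2.84) and the cysteine transporter YCT1 (2.59) rose, while the glutamine permease GNP1 fell by 0.97, a call that was lost in Cy5 alone, where its mean was -0.52. MET32, a DNA-binding partner of Met4, rose by 1.87 and CBF1, another partner, fell by 0.86. Serine synthesis, which supplies the carbon of cysteine, rose with SER33 (2.65), SER3 (2.05) and SER2 (2.03), and over the 21 genes of serine, glycine, threonine, aspartate, glutamate and proline synthesis 5 rose and 1 fell (median 0.41). The sulfite pump SSU1 was at -4.01 to -3.01 in pair 1 and at -0.29 to 0.02 in pair 2 and did not pass.

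Chaperone genes of the cytosol and of mitochondria rose, in part. Of 10 disaggregases and small heat-shock proteins 8 rose and 0 fell, with a median of 2.08. BTN2, a sequestrase that gathers misfolded proteins, was at 5.09, 5.26, 6.28 and 6.10 in pair 1 and at 2.55, 2.05, 3.11 and 2.93 in pair 2. Of all genes that were higher in pair 1 without overlap it had the widest gap between the pairs. HSP26 differed the other way, with 1.97 to 3.21 in pair 1 and 3.61 to 4.47 in pair 2, while HSP42 (2.45) and HSP104 (2.39) were closer. Of 20 Hsp70 and Hsp40 genes 9 rose and 2 fell, and the median was 0.65. SSA4 (3.23), SSA3 (3.14), SSE1 (2.61), SSA2 (2.47) and YDJ1 (2.33) rose. The ribosome-associated Hsp70 gene SSB2 fell by 1.54, with -0.80 to -1.58 in pair 1 and -1.51 to -2.47 in pair 2, and the Hsp40 gene XDJ1 fell by 1.36, not with both orientations alone. SSA1 and SSB1 stood at -0.18 and 0.62 and did not pass, but SSA1 is nearly identical to SSA2, and SSB1 to SSB2, so the 4 values are uncertain. Of 14 Hsp90 and co-chaperone genes 7 rose and 0 fell (median 0.81), led by CPR6 (3.57), HSP82 (2.85) and STI1 (2.18). STI1 had 1 array of pair 1 at -0.03 against 2.71 to 3.78 on the other 3. In mitochondria 4 of 12 rose and 0 fell (median 0.80), led by MDJ1 (2.44). Of 15 genes of the TRiC ring and prefoldin 3 rose (median 0.58), led by CCT2 (1.89), and of 10 tubulin genes and tubulin cofactors only CIN2 rose (3.30), at 2.74 to 3.86 in pair 1 and 3.04 to 3.52 in pair 2.

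In the endoplasmic reticulum 1 of 25 genes rose (4%) and 2 fell (8%), against 9.69% and 7.09% of all genes. ERO1, the oxidase that makes disulfide bonds there, was at 3.61, 3.80, 4.34 and 4.03 in pair 1 and at 2.65, 2.92, 2.68 and 2.88 in pair 2 (SE 0.32, limma adjusted p = 0.00655). The ubiquitin ligase HRD1 fell by 0.90 and the translocon subunit SEC62 by 1.14, and the call of HRD1 was lost with either orientation alone and that of SEC62 with Cy3 alone. KAR2, the Hsp70 of this compartment, was at 2.16, 2.35, 2.96 and 2.66 in pair 1 and at 0.10, -0.02, 0.19 and 0.30 in pair 2, and did not pass. The list's median was 0.37 in pair 1 and -0.30 in pair 2, and 12 of 25 genes were higher in pair 1 without overlap of arrays, against 598 of all genes (10.8%).

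Of each group of proteasome and ubiquitin genes a minority rose, but a larger share than the 9.69% of all genes. RPN4, the activator of proteasome genes, was at 2.86, 3.00, 3.45 and 3.25 in pair 1 and at 2.75, 2.53, 3.54 and 3.51 in pair 2 (SE 0.20, limma adjusted p = 0.00438). Of 14 core particle genes 4 rose (28.6%) and 0 fell, with a median of 0.71. Of 18 genes of the regulatory cap 7 rose (38.9%) and 0 fell, with a median of 0.76. On all 8 arrays 10 of the core genes and 16 of the cap genes were above 0, against 20.3% of all genes. The counts that rose moved with the dye, to 2 and 4 on the Cy3 arrays alone and to 7 and 7 on the Cy5 arrays alone. Their largest members were PRE1 (1.27) and RPT2 (1.23), the latter not past the threshold with 1 orientation alone. Of 14 assembly factors and associated proteins 4 rose and 1, RPN14, fell by 0.89 (median 0.35), again not with each orientation. In the ubiquitin system 9 of 32 genes rose (28.1%) and 0 fell (median 0.39). UBR1, the ligase of the N-end rule (2.19), RAD6, the conjugating enzyme that works with it (2.04), CUZ1, a cofactor of Cdc48 (1.90), and UBC4, the conjugating enzyme for short-lived and abnormal proteins (1.88), led. Of 28 autophagy genes 1 rose and 0 fell, ATG10 at 2.07.

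**Figure D2:**
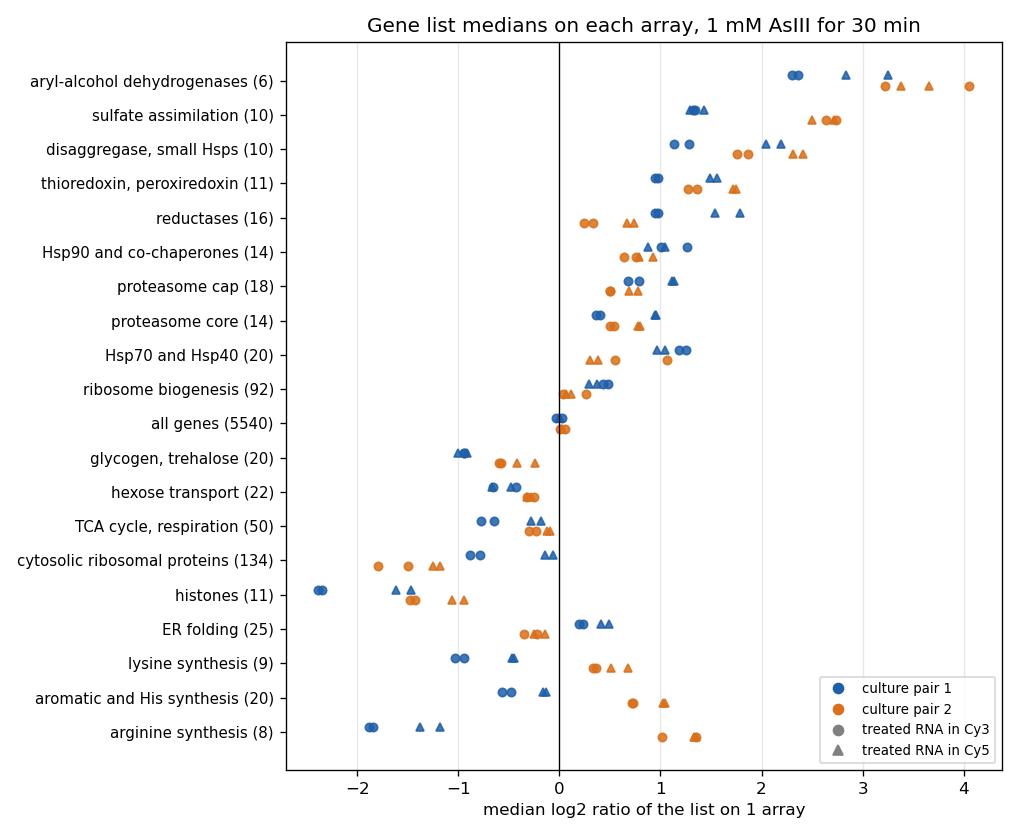
Median log2 ratio over the genes of a list (x axis) on each of 8 arrays, with the number of measured genes in brackets. Blue is culture pair 1, orange culture pair 2, circles treated RNA in Cy3 and triangles in Cy5. Medians of all genes lie between -0.04 and 0.06, the arginine genes lie below 0 in pair 1 and above 0 in pair 2, and the ribosomal protein genes lie between -1.79 and -0.07.

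Glucose transport and storage held the largest decreases. HXT2, a high-affinity hexose transporter, was at -2.74, -3.39, -4.51 and -3.92 in pair 1 and at -3.07, -3.09, -3.01 and -3.40 in pair 2. HXT1, a low-affinity transporter, fell by 2.17, with -3.59 to -2.33 in pair 1 and -2.33 to -0.77 in pair 2, and not past the threshold with 1 orientation alone. Over 22 hexose transporters, sensors and their regulators 7 fell and 3 rose (median -0.40). MTH1, a co-repressor of HXT genes, was among those that fell (-1.53), and the sensors SNF3 and RGT2 stood at 0.27 and 0.33. The 3 that rose, HXT9, HXT11 and HXT12, are nearly identical to each other and cannot be told apart on such spots, and the same holds for HXT6 and HXT7. Of 20 genes of glycogen and trehalose 9 fell and 0 rose (median -0.49). GLC3, the branching enzyme, was at -4.03, -4.47, -3.76 and -3.40 in pair 1 and at -2.63, -2.98, -2.21 and -2.55 in pair 2. The glycogen synthases GSY1 and GSY2 fell by 2.21 and 1.88, phosphoglucomutase PGM2 by 2.11 and glycogenin GLG1 by 1.82. GPH1, the phosphorylase that breaks glycogen down, stood at 0.05.

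In glycolysis and fermentation 2 of 30 genes rose and 3 fell (median -0.22). These were 6.67% and 10%, against 9.69% and 7.09% of all genes. The list's median was -0.11 in pair 1 and -0.65 in pair 2, and 13 of the 30 were higher in pair 1 without overlap, against 10.8% of all genes. It was -0.72 on the Cy3 arrays alone, where 5 genes fell, and -0.08 on the Cy5 arrays alone, where 2 did. PDC6, a minor pyruvate decarboxylase low in sulfur amino acids, was at 4.06, 3.66, 3.54 and 3.77 in pair 1 and at 3.53, 3.66, 3.46 and 3.65 in pair 2 (SE 0.20, limma adjusted p = 0.00438). PFK26, which makes fructose 2,6-bisphosphate, rose by 2.01. The pyruvate kinase PYK2 fell by 2.57 and the glucokinase GLK1 by 1.92. Of 50 genes of the TCA cycle and respiration 2 rose (4%) and 5 fell (10%), with a median of -0.28. The cytosolic malate dehydrogenase MDH2 fell by 1.69. Citrate synthase CIT1 fell by 1.33 and cytochrome c CYC1 rose by 1.08, both without a call in 1 orientation alone. HAP4, the activator of respiratory genes, fell by 1.67 and MIG1, the glucose repressor, by 1.37, the former likewise not in each orientation. Of 28 genes of peroxisomes and fatty acids 1 rose, which was CTA1 again, and 4 fell (median -0.33).

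Metal genes changed as single members. Of 17 copper and zinc genes 2 rose and 5 fell (median -0.20). The copper transporter CTR1 fell by 2.83 and its activator MAC1 by 1.16, and the zinc transporters ZRT1 and ZRT2 by 2.58 and 1.48. CUP1-1 and CUP1-2, identical copies of a copper metallothionein, were at 2.82 and 2.80, which is 1 measurement made on separate spots. Of 29 genes of iron uptake and use 1 rose (3.45%) and 2 fell (6.9%), against 9.69% and 7.09% of all genes. ISU2, a scaffold for iron-sulfur clusters, was at 2.18 to 3.86 in pair 1 and 2.82 to 3.88 in pair 2. The ferroxidase FET3 and the siderophore transporter SIT1 fell by 1.25 and 1.30, but in neither case with both orientations alone. CTH1, an RNA-binding protein of the same family as the iron-shortage factor TIS11, rose by 2.47. Of 29 genes for thiamine, biotin, pyridoxine and NAD 6 rose and 1 fell (median 0.37). THI4, of thiazole synthesis, rose by 1.76, and the nearly identical THI5, THI11, THI12 and THI13, of pyrimidine synthesis for thiamine, were at 1.33 to 1.77.

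Some genes of cytosolic ribosomal proteins fell. Of 134 cytosolic ribosomal protein genes 41 fell and 1 rose, and 67 were below 0 on all 8 arrays. The Cy3 arrays alone gave 79 that fell and the Cy5 arrays alone 15. RPS2 was at -2.48, -2.80, -0.94 and -1.04 in pair 1 and at -3.46, -3.83, -2.34 and -2.62 in pair 2 (SE 0.34, limma adjusted p = 0.0128). RPL1A and RPL1B, a pair of copies that share signal, were at -1.94 and -2.05, the latter not past the threshold in 1 orientation alone. The list's median was -0.49 in pair 1 and -1.44 in pair 2, and 75 of 134 genes were higher in pair 1 without overlap, against 10.8% of all genes. The median moved with the dye as well. In pair 1 the median of the Cy3 arrays was -0.85 and that of the Cy5 arrays -0.12, and in pair 2 these were -1.61 and -1.19. The dye's part in the counts was not tested beyond the fits in each orientation. RPL10 rose, at 0.19, 0.09, 1.80 and 1.72 in pair 1 and at 0.41, 0.26, 1.10 and 1.22 in pair 2, so its call rested on the Cy5 arrays and was lost in Cy3 alone, where its mean was 0.24. Of 69 mitochondrial ribosomal protein genes 2 rose and 7 fell (median -0.37). These were 2.9% and 10.1%, against 9.69% and 7.09% of all genes.

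Of 92 ribosome biogenesis genes 10 rose (10.9%, against 9.69% of all genes) and 0 fell (median 0.26), led by RPF1 (1.80) and IMP4 (1.71), both of which act in rRNA processing. CIC1 is counted as rising both here and among the proteasome assembly factors. Of 44 translation factors 2 rose (4.55%) and 5 fell (11.4%), against 9.69% and 7.09% of all genes. FUN12, the initiation factor that joins the subunits (eIF5B), was at -3.61, -4.10, -3.62 and -3.40 in pair 1 and at -2.02, -2.41, -1.71 and -1.94 in pair 2 (SE 0.41, limma adjusted p = 0.0141). The elongation factors YEF3 and EFT1 fell by 1.97 and 1.86. SUP35, the termination factor, rose by 1.40. DCP1, a subunit of the decapping enzyme, was at 4.44, 4.77, 4.99 and 4.65 in pair 1 and at 4.24, 4.64, 4.30 and 4.41 in pair 2. Of 35 genes of mRNA decay 4 rose (11.4%, against 9.69% of all genes) and 0 fell. Of 39 splicing genes 2 rose, MUD1, of the U1 particle, by 2.79 and SMX2 by 0.93.

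Core histone genes fell together. Of 11 histone genes 9 fell and 0 rose, with a median of -1.69, and the 9 were below 0 on all 8 arrays. HTA2, one of the H2A genes, was at -2.84, -3.19, -1.34 and -1.49 in pair 1 and at -2.41, -2.72, -1.30 and -1.19 in pair 2 (SE 0.21, limma adjusted p = 0.00677), so the Cy3 arrays lay below the Cy5 arrays in each pair. HTA1 (-1.96), HHT2 (-1.84), HHF2 (-1.81), HHF1 (-1.71), HHT1 (-1.69), HTB1 (-1.54) and HTB2 (-1.54) fell as well, and copies of 1 histone share signal. The linker histone HHO1 fell by 1.05 and lost its call in Cy5 alone, where its mean was -0.48. The variants HTZ1 (H2A.Z) and CSE4 (of the centromere) stood at -0.29 and 0.29. Of 21 cyclins and cell cycle regulators 2 rose (9.52%) and 1 fell (4.76%), near the 9.69% and 7.09% of all genes.

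Of 35 mating genes 3 rose and 5 fell (median -0.04). MATa cells make a-factor and the receptor for alpha-factor. The protease BAR1, the receptor STE2 and the a-factor gene MFA2 fell by 2.35, 2.17 and 2.08, each below 0 on all 8 arrays, while the other a-factor gene MFA1 was at 0.68 to 1.50 in pair 1 and at -1.08 to -0.67 in pair 2. MF(ALPHA)1, an alpha-factor gene that is silent in MATa cells, had a ratio of 1.75, with 1.12 to 2.47 in pair 1 and 1.14 to 2.44 in pair 2. The related MF(ALPHA)2 stood at 0.33 and the alpha-cell receptor for a-factor STE3 at 0.20. A ratio says nothing of how little RNA it was formed from.

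Of 42 genes of the subtelomeric PAU and COS families 21 rose and 5 fell. All that rose were PAU genes, seripauperins of similar sequence that can share signal, with ratios from 1.55 (PAU3) to 2.22 (PAU1). PAU7 and PAU8 stood at 0.02 each, PAU7 at -0.26 to 0.19 in pair 1 and PAU8 at -0.94 to 0.66. All that fell were COS genes, COS7 (-1.20), COS5 (-1.17), COS8 (-1.08), COS6 (-0.99) and COS3 (-0.97). The count moved with the dye, to 8 on the Cy3 arrays alone and to 1, COS7, on the Cy5 arrays alone, and median centring gave 8.

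Among 56 regulators 6 rose (10.7%) and 3 fell (5.36%), against 9.69% and 7.09% of all genes. YOX1, a homeobox repressor of the cell cycle, was at 3.86, 4.10, 3.62 and 3.44 in pair 1 and at 2.42, 3.38, 2.10 and 3.19 in pair 2 (SE 0.29, limma adjusted p = 0.00643). The AP-1-like factors YAP7 (1.79) and YAP1 (1.64) rose. CRF1, a co-repressor of ribosomal protein genes, rose by 1.29. MSN2 (0.89), an activator of general stress genes, had 1 array of pair 1 at -1.04 and lost its call in 1 orientation alone. Of 39 general stress genes 6 rose and 7 fell, and those that fell held GLK1, PGM2 and the glycogen and trehalose genes TSL1, GSY2 and GDB1. Of 21 DNA damage genes 5 rose and 1 fell (median 0.56). Subunits of ribonucleotide reductase differed among themselves: RNR4 (1.77) and RNR2 (1.66) rose, RNR3 was at 0.86 and RNR1 at 0.32 without a call. Of 20 purine genes 1 rose and 2 fell, with IMD4, an IMP dehydrogenase, at -1.99.

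Amino acid synthesis split the 2 cultures. All 8 measured arginine genes were higher in pair 2 without overlap of arrays, against 714 of all genes (12.9%), and their median was -1.58 in pair 1 and 1.36 in pair 2. ARG1, the argininosuccinate synthetase, was at -3.64, -3.80, -3.67 and -3.64 in pair 1 and at 0.75, 2.75, 2.11 and 2.08 in pair 2. ARG3, the ornithine carbamoyltransferase, was at -1.43 in pair 1 and 2.63 in pair 2, CPA1, of carbamoyl phosphate synthesis, at -1.91 and 1.56, and the lyase ARG4 at -1.97 and 0.85. In the test over both pairs 0 of the 8 passed. Pair means also had opposite signs for LYS1 (-0.43 and 2.24) and LYS20 (-1.18 and 1.13), the last and the first enzyme of lysine synthesis. Of 9 lysine genes 7 were higher in pair 2 without overlap, with medians of -0.62 and 0.44. Of 20 genes of aromatic amino acids and histidine 13 were, with medians of -0.27 and 0.91, and only TYR1, of tyrosine synthesis, rose (1.34). HIS5, of histidine synthesis, was at -0.27 to 0.73 in pair 1 and 2.87 to 3.25 in pair 2. Both cultures carried his3Δ, and the HIS3 spot itself was at -1.90 and 0.78. Whether that spot lies within the deleted part is not given in the sources used here.

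**Figure D3:**
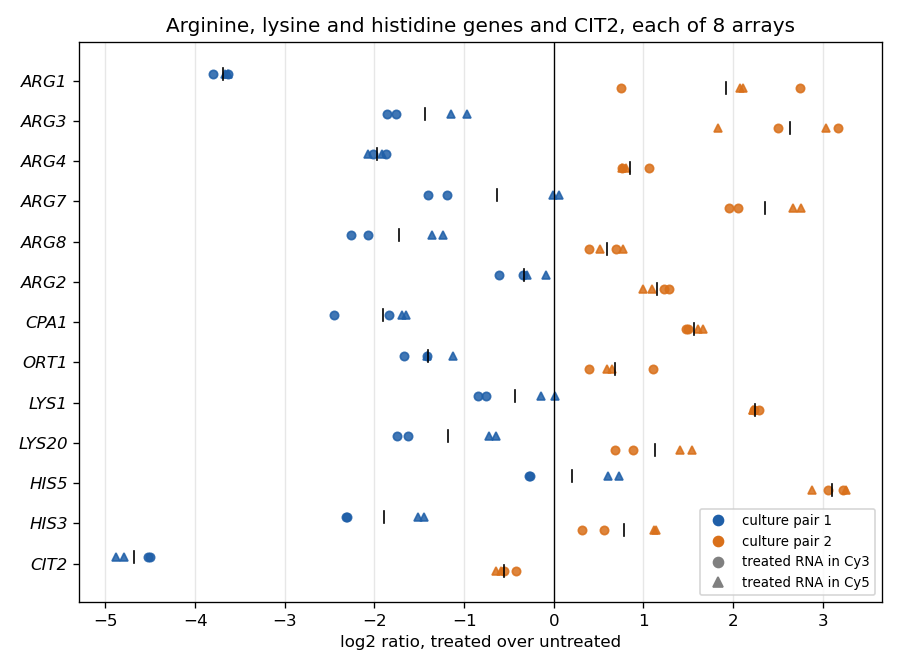
Log2 ratio (x axis) on each of 8 arrays for the 8 arginine genes, 4 lysine and histidine genes and CIT2. Blue is culture pair 1, orange culture pair 2, circles treated RNA in Cy3, triangles in Cy5, and black ticks the mean of 4 arrays. For every gene shown the 4 blue points lie left of the 4 orange ones, with ARG1 at -3.69 and 1.92 and CIT2 at -4.68 and -0.56 on average.

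Branched-chain amino acid genes were below 0 in both cultures by their medians, at -0.90 in pair 1 and -0.49 in pair 2. Without overlap 5 of 11 were higher in pair 2 and 1 in pair 1, against 12.9% and 10.8% of all genes. Of the 11 genes 4 fell and 0 rose (median -0.74). ILV3, the dihydroxyacid dehydratase, was at -3.07 to -2.28 in pair 1 and -1.43 to -0.99 in pair 2, and ILV5 fell by 1.55. The aminotransferase BAT1 (-0.86) and the carrier OAC1 (-0.90) fell, though not in both orientations alone. Of 26 permeases for amino acids and nitrogen sources 3 fell and 0 rose. The acidic amino acid permease DIP5 was at -3.58 to -3.13 in pair 1 and -2.40 to -1.41 in pair 2, and BAP3, for branched-chain amino acids, at -3.79 and -0.03 on average, without a call. Of these 26 genes 12 were higher in pair 2 without overlap and 0 in pair 1, against the same shares of all genes.

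Gaps between the pairs were ranked among single genes whose arrays did not overlap. The widest with pair 2 higher were those of ARG1, CIT2, ARG3, BAP3, CPA1, ARO5, STR3, TMT1, SSU1 and ATG41. CIT2, the peroxisomal citrate synthase, was at -4.50, -4.52, -4.88 and -4.80 in pair 1 and at -0.56, -0.43, -0.59 and -0.65 in pair 2, and did not pass (limma adjusted p = 0.107). TMT1, a methyltransferase of trans-aconitate, was at -2.49 and 0.80 and ATG41 at -0.10 and 3.14. The widest gaps with pair 1 higher, again without overlap, were those of BTN2, OLE1, YLR162W, ADH1, KAR2, ADH2, PMI40, ZPR1, COA4 and MAY24. OLE1, the fatty acid desaturase, was at 1.47 in pair 1 and -1.07 in pair 2. ADH1 and ADH2, which share signal, were at 0.46 and 0.51 in pair 1 and at -1.95 and -1.83 in pair 2. PMI40, which makes mannose 6-phosphate, was at 1.67 and -0.58. ZPR1, a zinc finger protein that folds elongation factor eEF1A, rose in both, at 3.39 and 1.20. In all, 127 genes were above 0 on each array of pair 2 and below 0 on each of pair 1, and 80 the reverse. Each pair is 1 divided culture, so these differences have no test, and array set and culture cannot be told apart in them.

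**Figure D4:**
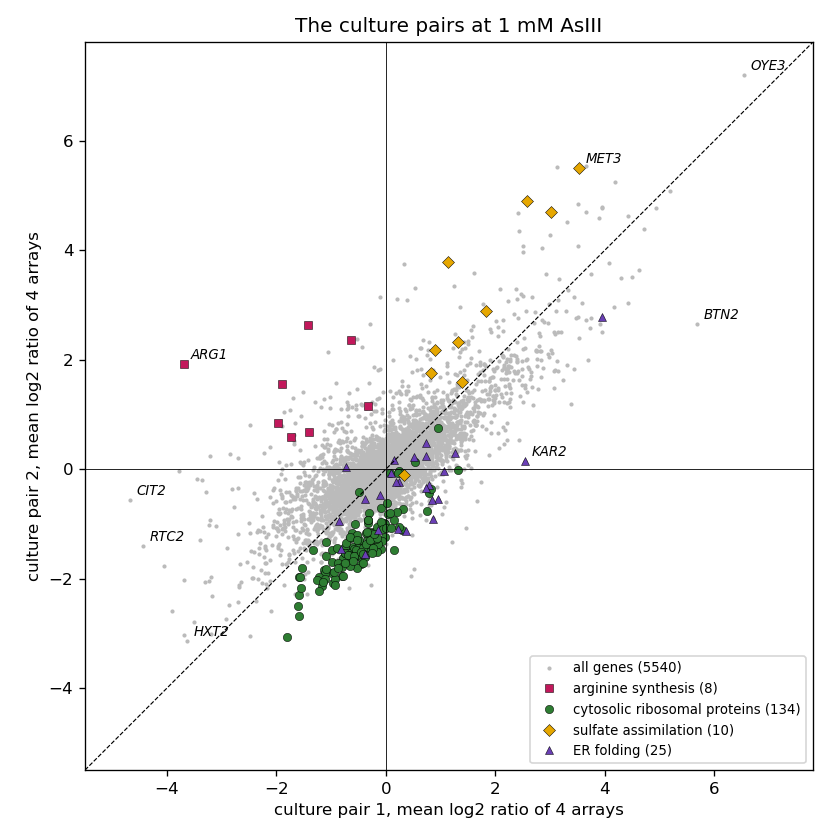
Mean log2 ratio of 4 arrays in culture pair 1 (x axis) and culture pair 2 (y axis) for 5540 genes, with 4 lists in colour and the dashed line at equal values. Arginine genes lie at the upper left, with pair 1 below 0 and pair 2 above, and most ribosomal protein genes lie below the line.

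The orientation of the dyes moved many ratios. The Cy5 mean minus the Cy3 mean had the same sign in both pairs for 4089 genes (73.8%), whether or not their arrays overlapped. The median absolute difference between these means was 0.53 in pair 1 and 0.30 in pair 2. For 115 genes all Cy3 arrays were above 0 and all Cy5 arrays below, and for 165 the reverse. RMI1, RAD1, YBR225W, YCL074W and TFC3 were the furthest on the Cy3 side. YBR225W was at 1.98, 2.18, 1.20 and 1.62 in Cy3 and at -0.52, -0.64, -0.60 and -0.63 in Cy5, and TFC3 changed sign in the same way. TDH3, a glyceraldehyde-3-phosphate dehydrogenase, was on the Cy5 side, at -0.34, -0.78, -1.26 and -1.45 in Cy3 and 1.34, 1.22, 0.16 and -0.01 in Cy5. None of these 6 genes passed the test over both orientations. Beside the genes named above with a call lost in 1 orientation, GSH1, MTH1, TPO3, SMX2 and TYR1 lost their call with 1 orientation alone and CBF1 with either. TSL1 and GDB1 lost theirs on the Cy5 arrays alone, where their means were -0.65 and -0.99. Among lists, the Cy3 arrays alone gave 4 mitochondrial ribosomal protein genes that fell and the Cy5 arrays alone 4, and the Cy5 arrays alone gave 3 that fell and 1 that rose in the TCA cycle and respiration and 2 that fell in the peroxisomal list. List medians moved to 0.75 for homocysteine, methionine and cysteine, to 1.06 for glutaredoxins and peroxidases and to -0.39 for branched-chain amino acids on the Cy5 arrays alone. On the Cy3 arrays alone they moved to 0.22 for the serine list, -0.54 for the TCA cycle and -0.35 for copper and zinc. LEU2, MET17 and URA3, named as deleted in the strain, also had higher Cy3 than Cy5 means in each pair, LEU2 at 0.82 and 1.12 in Cy3 and -0.40 and -0.29 in Cy5 in pair 1. Their means were 0.39, 0.38 and 0.20.

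On each array 1 value filled 395 to 434 spots, while no other value filled more than 5. It differed between arrays and lay between -0.51 and 3.05, and only 3 to 8 of the spots that held it were gene spots. Of 18 genes concerned, 5 held it on 5 or more arrays: GAL7 on 8, KIN1 and TRM1 on 7, TPS2 on 6 and DCS2 on 5. GAL7, KIN1 and TRM1 are among the 537 genes that rose, at 1.38, 1.20 and 1.47, and these values are the repeated ones rather than readings of their own. With the repeated value set to missing, an alternative chosen after seeing the data, 5535 genes could be tested, of which 535 rose and 393 fell.

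The same time at 100 μM AsIII gave a comparison of dose. The arrays at 1 mM lay above those at 100 μM without overlap for 579 genes (10.5%) and below for 467 (8.43%). The low dose had 1 culture pair, its spread is assumed to be that of the pairs at 1 mM, and whether the untreated culture was the same is not stated. No gene passed limma's test of the difference (0 up and 0 down, 791 at an unadjusted p under 0.05, smallest adjusted p 0.122). Treating arrays as replicates, which counts arrays of the same culture as independent, gave 799 higher and 737 lower. Among genes without overlap of arrays DCP1 had the largest positive difference, at -0.14 to 0.34 at 100 μM. Next came MET3 (0.11 at 100 μM), BTN2 (-0.13), YLR326W (-0.09, and 4.13 at 1 mM), PET18 (0.37) and the isomaltase gene IMA4. IMA4 was at -0.16 to -0.11 at 100 μM and 3.25 to 4.88 at 1 mM. ICY1, RTC2, CIT2, HXT4, GLC3 and RPS22A had the largest negative differences among genes without overlap. Hsp70 gene SSA4 was below 0 on all 4 arrays at 100 μM (-0.73 to -0.10) and above 2 on all 8 at 1 mM. ARR3 was the other way round, at 3.43 to 4.74 at 100 μM against 1.51 to 2.81 at 1 mM. ARR2 stood at 6.06 and 3.91, and its arrays overlapped. All arrays at 1 mM were above 0 and all at 100 μM below for 82 genes, and the reverse held for 43.

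Against 100 μM for 2 h, where dose and time both differ, 415 genes (7.49%) were higher and 538 (9.71%) lower at 1 mM without overlap. Again no gene passed the test of the difference (0 up and 0 down, 817 at an unadjusted p under 0.05, smallest adjusted p 0.199), while arrays as replicates gave 710 higher and 810 lower. Of 134 ribosomal protein genes 24 were higher and 0 lower at 1 mM without overlap. Among single genes that were lower, HXT2 was at 0.12 to 0.66 at 2 h against -4.51 to -2.74 at 1 mM, PUT1, the proline oxidase, at 0.84 to 1.99 against -3.22 to -0.88, and RCK1, a stress kinase, at 0.53 to 1.70 against -2.94 to -1.76. Of 29 iron genes 15 were lower at 1 mM without overlap and 0 higher. SIT1 was at 1.61 to 2.19 at 2 h and -1.87 to -0.18 at 1 mM. SOA1, an anion transporter of sulfur compounds, had the largest negative difference without overlap (4.88 at 2 h and 0.74 at 1 mM), followed by GRE1 (5.21 and 1.22). Higher at 1 mM were ZPS1, a zinc-regulated protein at -3.91 to -3.36 at 2 h and 0.06 to 2.98 at 1 mM, the biotin genes BIO4 (-1.53 and 1.42) and BIO3 (-2.32 and 0.33), SRL1 (-1.75 and 1.16), the cyclin CLB1 (-3.62 and -0.98) and FKH1 (-2.50 and 0.10). FKH1 had 1 array of 4 at -5.67 at 2 h, against -2.04 to -0.99 on the others.

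**Figure D5:**
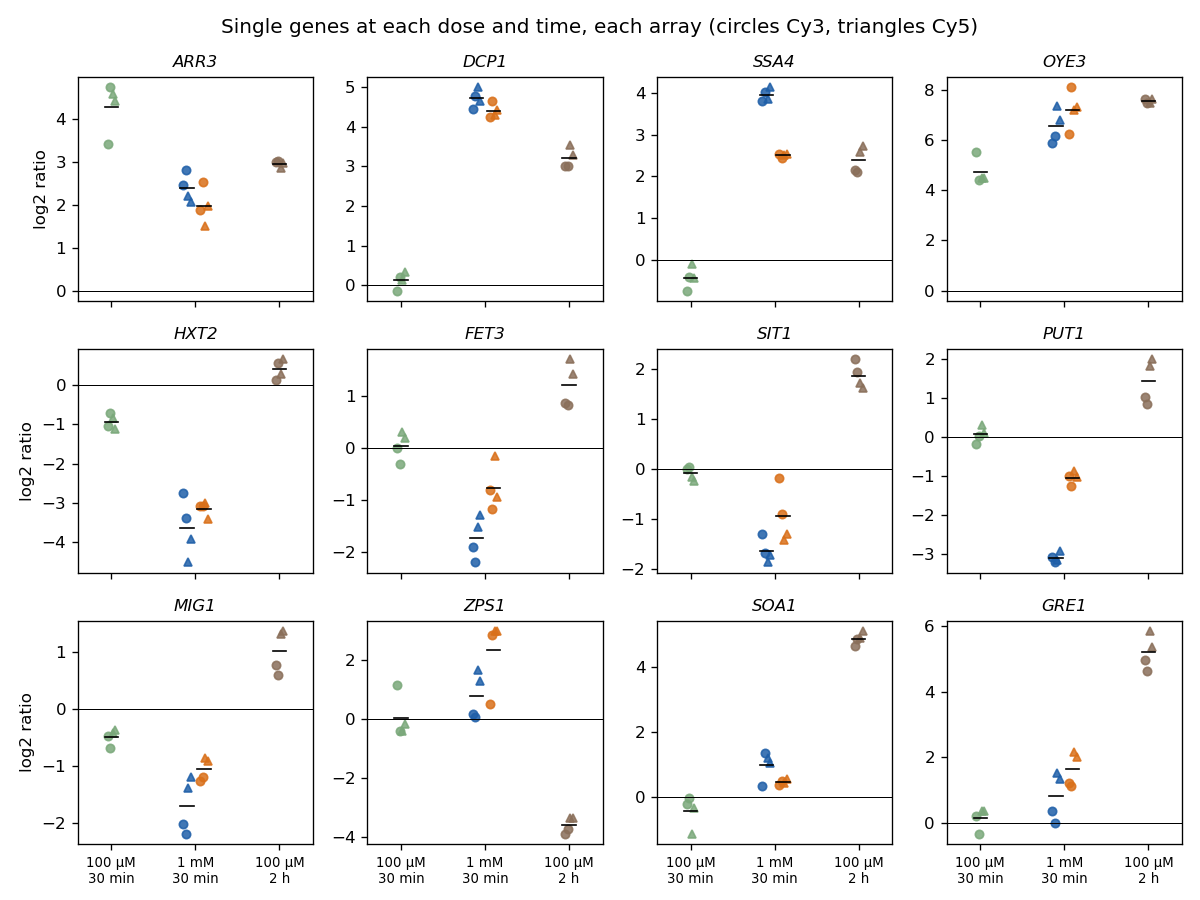
Log2 ratio (y axis) of 12 genes on each array at 100 μM for 30 min (green), 1 mM for 30 min (blue, culture pair 1, and orange, pair 2) and 100 μM for 2 h (brown). Circles are treated RNA in Cy3, triangles in Cy5, bars the mean of 4 arrays, and each panel has its own scale. ARR3 is highest at 100 μM for 30 min, and HXT2 is above 0 at 2 h and below -2 at 1 mM.

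Genes that rose stood next to each other on the chromosome more often than genes overall. The RefSeq annotation gave 5097 pairs of neighbouring genes that were both measured. Of 977 neighbours of a gene that rose, 258 (26.4%) rose too, while 9.58% of genes in these pairs did. The share was 27.2% for tandem pairs, 26.5% for divergent pairs, which face away from each other, and 25.1% for convergent pairs. For genes that fell it was 11.3% (80 of 709) against 6.96%, and 15.6% for divergent pairs. Several of the largest increases were in such pairs. OYE3 lay between COX10 (3.28) and DAP1 (3.09), GRE2 between FRE7 (2.18) and DCP1, YML131W (4.37) converged on ERO1, and YLL056C (4.36) lay in tandem with JLP1. PET18 was beside MAK32 (1.60), while FRM2 was beside the permease AGP1, at -1.45 without a call. Neighbouring genes were mostly printed as spots whose numbers in the table differ by 2. Where neighbours had numbers over 10 apart, 22.2% (18 of 81) rose too. Where spot numbers were 2 apart but the genes were over 5 genes apart or on other chromosomes, 11.1% (8 of 72) did. Spots can overlap the next gene, and the part of that in these shares was not tested.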

How the data were processed

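Both channels of a spotted cDNA array were reduced by the authors to 1 log2 ratio of treated over untreated RNA per spot, and these ratios were deposited. Their log base is not stated and was taken as 2, and their background correction and normalization are not given in the sources used here. Of 6720 spots 1143 had no match to a single gene and were left out, as was any spot matched to several genes. Spots of the same gene (36 genes) were averaged, which gave 5540 genes and 0 missing values. No level or depth can be had from a ratio, so the number of arrays limits the precision.

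Arrays of 1 culture pair share their RNA and were counted as 1 replicate. Pair means of all 20 cDNA arrays (4 conditions, 5 culture pairs) entered 1 fit with limma 3.58.1 in R 4.3.3. The p-values were adjusted after Benjamini and Hochberg, and 0.05 was the threshold. The procedure was also run on simulated data with the same spread for all genes and no dye effect. Because the real genes differ in both, that run does not test the calls made here. Tables and figures were made in Python 3.11.15, using pandas 2.3.3, numpy 2.4.6 and, for the figures, matplotlib 3.10.9. The Agilent arrays were not used here and no promoter motifs were searched.

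Named genes were first the 12 called genes of 1 sign on all 8 arrays with the largest ratio each way. From each list came the 5 members with the largest absolute ratio and up to 2 called ones against its median. For lists of up to 11 all members were taken, of which the text gives only part. Among genes without overlap of arrays, the 10 widest gaps between pairs and the 6 largest differences from another condition were taken each way. The 5 largest dye differences each way, of 1 sign in both pairs, were added. Paralogs, neighbours and other members that did not pass were named after their values were seen. Members and lists were chosen with earlier results of these data known. Alternatives were median centring, the median of spots, arrays as replicates with and without a block for the array number, 1 dye orientation alone, robust fitting, 1 culture pair alone, other call rules and the repeated value set to missing.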

Additional observations from a re-analysis of the deposited data

Results flagged for a closer look

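Among the 8 arrays, 1 array stood away from the other 7 for 7 of the named genes, by its gap to the nearest value against the whole range. For independent values chance sets apart about 1 in 20 such groups, and at least 224 named genes were screened. The 8 arrays come from 2 culture pairs in 2 dye orientations, so the number to expect here is not known. Whether the 7 go beyond chance was not tested. DFP2 was at 0.38 on array 4 of culture pair 1 and at 4.10 to 5.47 on the others. MSN2 was at -1.04 on the same array and at 0.62 to 2.01 on the others. CTR1 was at -1.18 on array 1 of pair 2 and at -3.58 to -2.54 elsewhere, and FRE7 at -0.19 on that array and at 1.79 to 3.30 elsewhere. ARR1 was at 0.37 on array 2 of pair 1, with the others at -0.51 to -0.11, and GPH1 at 0.94 on that array, with the others at -0.51 to 0.14. SNF3 was at -0.46 on array 3 of pair 2 and at 0.12 to 0.53 on the others.

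For other genes the arrays at 1 mM all lay on one side of 0 and the 4 arrays of another condition all on the other. This opposition of signs was not itself tested, and no gene passed limma's test of the difference between the conditions. Between 1 mM and 100 μM at 30 min, the means were 2.50 and -0.20 for IDP3, 2.45 and -0.27 for HSP42, 3.23 and -0.42 for SSA4, and 2.44 and -0.29 for MDJ1. They were 3.28 and -0.40 for COX10, 1.40 and -0.30 for SUP35, 4.00 and -0.13 for IMA4, and 0.74 and -0.42 for SOA1. With 1 mM below 0, they were -0.90 and 0.13 for OAC1 and -2.62 and 0.22 for CIT2.

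Between 1 mM at 30 min and 100 μM at 2 h, where dose and time both differ, transporters and glucose or proline genes had opposite signs. The means were -3.39 and 0.41 for HXT2, -1.92 and 0.48 for GLK1, -1.37 and 1.01 for MIG1, and -2.07 and 1.42 for PUT1. For the iron genes FET3 and SIT1 they were -1.25 and 1.22, and -1.30 and 1.86. They were -3.11 and 0.22 for ISF1, -0.54 and 1.15 for RGC1, a regulator of the Fps1 channel, -2.40 and 1.03 for RCK1, -0.97 and 0.15 for COS3, and -1.17 and 0.12 for COS5. With 1 mM above 0, they were 1.56 and -3.60 for ZPS1, 1.42 and -1.53 for BIO4, and 1.16 and -1.75 for SRL1.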

How the results depend on the processing

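When single arrays stood as replicates, 1442 genes passed upward and 1537 downward, and 1643 and 1673 did when a replicate block for the array number was added. Array numbers do not pair the samples, since arrays of a pair share their RNA, so these counts are given once. The Cy5 arrays alone gave 248 genes downward. An unadjusted p under 0.001 with at least 2-fold change gave 257 upward and 97 downward, and values outside the 95% range on at least 6 of 8 arrays gave 119 and 39. Median centring, the Cy3 arrays alone, a robust fit, the median of spots and the repeated value set to missing moved either count by under 1.5 times. Without either culture pair no test was possible, and counts of 2-fold changes with 1 sign were then 507 to 601 upward and 383 to 528 downward.

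For 1 mM against 100 μM at 30 min, arrays as replicates gave 799 genes higher and 737 lower, with the replicate block 1012 and 932, and the unadjusted rule 29 and 4. Against 100 μM at 2 h these were 710 and 810, 1010 and 995, and 7 and 16. Ratios of 224 named genes were compared with the main fit under each of several alternatives with a test, so a gene counts several times. Direction and side of the threshold were kept in 1281 comparisons, and the sign changed in 13. A call was lost in 38, of which 16 were with Cy3 alone and 22 with Cy5 alone, and gained in 12. Median centring, the median of spots and the repeated value set to missing left 223, 224 and 224 of the 224 the same. With 1 culture pair alone there is no test. There 0 of 190 named genes with a call changed sign in either pair, and 7 of 34 without one did, as MFA1 at -0.82 and 1.03. A gene whose pair means differ in sign cannot get a call from 2 pairs, so the 0 follows from the call rule. Ratios that changed sign with the dye belonged to genes without a call. With Cy3 alone PAU7 was at -0.10, MFA1 at -0.12, TRX1 at -0.10 and SSA1 at 0.48. With Cy5 alone PAU8 was at -0.50, GPH1 at -0.030, GSH2 at -0.10, LEU2 at -0.12, MET17 at -0.074, MET8 at -0.14, SOD2 at -0.086, STE3 at -0.21 and URA3 at -0.16. The cause was not tested. Of comparisons of list medians under these alternatives, where a list likewise counts several times, 185 stayed within the spread between pairs and 19 did not.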
